A study of Mus musculus with 6 samples.

Results

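A set of 8 chemokine genes were followed in the embryonic bladder: the ligand genes Cxcl12, Cxcl1, Cxcl14, Cxcl16, Ccl2 and Ccl7 and the receptor genes Cxcr4 and Ackr3. They were found by gene symbol in the array's platform annotation, which gave 14 probe sets for the 8 genes, among 34945 probe sets with a single symbol for 18193 genes. The tissue was the bladder of wild-type FVB/N mouse embryos of unknown sex at embryonic day 13, Theiler stage 21. Bladders were cut off above the ureters and soaked for 20 minutes in 20 µM EDTA, a chelator that loosens epithelium from the tissue beneath it, and a needle was used to part them into mesenchyme (3 arrays, replicates 1, 2 and 4) and urothelium (3 arrays, replicates 5, 7 and 8). All 6 samples had the same EDTA bath and the same 2 rounds of RNA amplification. The labels call the samples unpooled without tying each to its own embryo; every p-value therefore reflects only how far these samples vary, which may be technical.

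Chemokines are small secreted proteins that bind G protein-coupled receptors and steer the movement of cells along their gradients. The names CXC and CC describe the spacing of the first cysteines of the protein. CXCL12 is made by stromal cells in many embryonic organs and draws cells that carry CXCR4, while ACKR3 binds and removes CXCL12 without the usual G protein signal. CCL2, CCL7 and CXCL1 are best known as inducible attractants of monocytes and neutrophils, and CXCL16 is made as a membrane protein that can be shed.

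The compartments were separated by their defining markers. Of 12 mesenchymal markers 12 were higher in mesenchyme (median log2 difference 4.95), led by the cadherin gene Cdh11 (6.14), the periostin gene Postn (5.70) and the lumican gene Lum (5.26). Of 12 epithelial markers 12 were higher in urothelium (median -5.48), led by the transcription factor genes Trp63 (-8.24) and Foxa1 (-7.92) and the hedgehog ligand gene Shh (-8.10). The summed signal of the mesenchymal markers was 335905 to 383190 on the mesenchyme arrays and 15293 to 17529 on the urothelium arrays. That of the epithelial markers was 9426 to 12373 on the mesenchyme arrays and 468122 to 563876 on the urothelium arrays. Here and below, a log2 difference is mesenchyme minus urothelium on the scale log2(signal + 45), which understates the change of dim probe sets, and a gene is past the test where its limma p-value, adjusted over all 18193 genes, is under 0.05. Over all genes the median log2 difference was 0.11, and with arrays centred on their medians it was -0.28, so small differences have no settled direction. On mesenchyme 1 and urothelium 5 the actin probe set at the 3' end read 8.40 and 8.60 times the one at the 5' end, while the remaining arrays had ratios of 2.29 to 4.89. Values without both are given where they change a result.

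The mesenchyme also held other cell types. As background for the counts below, 8.91% of all genes were past the test with higher signal in mesenchyme and 5.8% in urothelium. All 12 of 12 endothelial markers were higher there (median 3.67), led by Sox17 (5.21), the vascular cadherin gene Cdh5 (4.94) and the angiopoietin receptor gene Tek (4.32), with a summed signal of 27452 to 32109 on the mesenchyme arrays and 1581 to 2534 on the urothelium arrays. Of 15 measured macrophage and leukocyte markers 6 were higher in mesenchyme and 0 in urothelium by the limma test (median 1.34). The receptor gene Csf1r (3.97), the mannose receptor gene Mrc1 (2.93) and the complement gene C1qb (2.49) differed most, and the summed signal was 11893 to 16094 in mesenchyme and 2211 to 2739 in urothelium. Of 6 measured red cell genes 4 were higher in mesenchyme (median 1.46), among them Hbb-bh1 (1.87), Alas2 (1.66) and Hba-x (1.47). Hbb-y, by far the brightest of the list, was not past the test (-0.05 ± 0.29). It read 80879, 65117 and 64684 on mesenchyme 1, 2 and 4, and 102013, 55560 and 66120 on urothelium 5, 7 and 8. The summed signal, most of it from Hbb-y, overlapped, 70364 to 88929 in mesenchyme and 57083 to 103832 in urothelium. The red cell count was 2 without mesenchyme 1, without mesenchyme 2, without urothelium 5 or without both mesenchyme 1 and urothelium 5, 1 without mesenchyme 4 and 0 without urothelium 7. Hbb-bh1 (1.47) and Hba-x (1.14) lost their calls without both mesenchyme 1 and urothelium 5. Of 7 mesothelial markers 4 were higher in mesenchyme, Wt1 (3.19) the most, and 2 in urothelium, Msln (-5.16) and Krt19 (-4.49, also an epithelial keratin). Their summed signal overlapped, 19608 to 42602 in mesenchyme and 39284 to 60918 in urothelium, and leaving out mesenchyme 2, mesenchyme 4 or urothelium 7 left 2 higher in mesenchyme. No marker of these lists was at 0 on any array, but the lowest signal of all probe sets was 0.09. The lack of 0 values therefore says nothing of detection, and no detection call was used. Fewer cells of a type and less RNA per cell cannot be told apart in such bulk samples, and the part of these cell types in the chemokine results below was not tested.

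**Figure D1:**
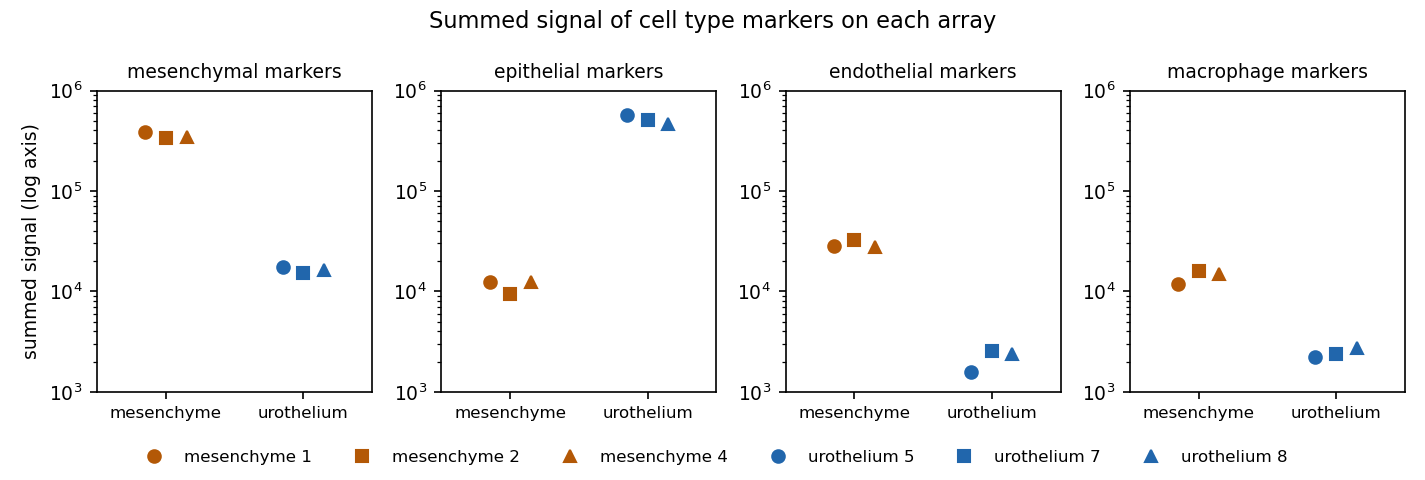
Summed signal (linear intensity, log axis) of the mesenchymal, epithelial, endothelial, and macrophage and leukocyte marker genes on each array, mesenchyme left and urothelium right, with a symbol for each array. In each of the 4 panels the 3 arrays of one compartment lie apart from those of the other.

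Of the 8 chemokine genes 2 were past the test, Cxcl12 and Cxcl1, both higher in mesenchyme, and 0 were higher in urothelium. Both are ligand genes, 2 of the 6, and 0 of the 2 receptor genes passed. Over all genes 8.91% were past the test with higher signal in mesenchyme and 5.8% with higher signal in urothelium, 14.7% in all. In 4 of the 8 genes every mesenchyme array lay above every urothelium array, which held for 18.1% of all genes; for 30.1% the compartments did not overlap in either direction. The median log2 difference of the 8 was 0.59, beside 0.11 over all genes.

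Cxcl12 showed the largest difference of the 8 genes. Mesenchyme 1, 2 and 4 read 5699, 3924 and 4328, and urothelium 5, 7 and 8 read 128.4, 145.6 and 201.9. The lowest mesenchyme array thus lay far above the highest urothelium array. The mean was 4650 ± 930 in mesenchyme and 159 ± 38.5 in urothelium (SD, n = 3 each), and the log2 difference was 4.53 ± 0.35 (SE, adjusted p = 1.07e-05), a 23.0-fold difference with a 95% interval of 13.5 to 39.1. A further probe set, 1448823_at, gave 4.52 ± 0.35, with signals of 4582, 3868 and 5083 in mesenchyme and 124.7, 122.6 and 226.0 in urothelium. The last probe set of the gene, 1439084_at, was dim on every array, 25.6, 104.4 and 44.1 in mesenchyme and 4.17, 59.6 and 28.0 in urothelium, and with a difference of 0.44 ± 0.39 it missed the threshold (adjusted p = 0.620). Cxcl12 was past the test under all 17 alternatives of processing, at 3.16 to 4.87. These alternatives called from 9.88% of all genes, without urothelium 7, to 27.8%, with array weights, and 19.8% of the genes above the median signal.

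The RefSeq promoter of Cxcl12 is shown because this gene carries the largest difference. It is the stretch of 250 bases before the annotated start, chr6:117168285-117168534 of GRCm38.p6, plus strand, written 5′ to 3′. Capitals mark matches to the GC box GGGCGG, the site bound by Sp1-type factors, on either strand.
Cxcl12: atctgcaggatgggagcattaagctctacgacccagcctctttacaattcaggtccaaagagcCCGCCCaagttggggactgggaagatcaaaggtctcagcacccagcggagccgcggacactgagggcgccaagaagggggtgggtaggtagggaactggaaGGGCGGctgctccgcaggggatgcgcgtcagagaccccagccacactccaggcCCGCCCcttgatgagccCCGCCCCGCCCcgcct
The window holds 5 matches to the GC box, a pair of which overlap near the start, and none to TATAAA on either strand. Of 32851 promoter windows of the same length in the table, 32.7% hold GGGCGG on either strand and 12.4% hold TATAAA.

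Cxcl1 encodes an attractant of neutrophils that acts through CXCR2. Mesenchyme 1, 2 and 4 read 1896, 1070 and 1000.4, and urothelium 5, 7 and 8 read 289.6, 438.5 and 212.6. The compartments did not overlap, but mesenchyme 1 lay well above the other 2 mesenchyme arrays. The mean was 1322 ± 498 in mesenchyme and 313.6 ± 115 in urothelium (SD, n = 3 each). The log2 difference was 1.92 ± 0.42 (SE, adjusted p = 0.00959), 3.79-fold with a 95% interval of 1.99 to 7.20, and it was past the test under all 17 alternatives (1.43 to 2.70).

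Each of the 3 probe sets of Cxcl1 was past a test in which all 34945 probe sets were separate features, of which 9.41% passed, 5.75% with higher signal in mesenchyme and 3.66% in urothelium. The one above, 1441855_x_at, is of a type whose probes may also bind other transcripts. Probe set 1457644_s_at gave 1977, 1699 and 1318 in mesenchyme and 194.1, 439.3 and 106.9 in urothelium, a log2 difference of 2.70 ± 0.47 (adjusted p = 0.00440). Here mesenchyme 1 was close to the other mesenchyme arrays. Probe set 1419209_at gave 344.6, 1091 and 1368 in mesenchyme and 72.0, 263.0 and 23.2 in urothelium, a difference of 2.66 ± 0.67 (adjusted p = 0.0323), and here mesenchyme 1 was the lowest of its compartment. That call was lost without mesenchyme 2 (2.46), mesenchyme 4 (2.30), urothelium 5 (2.56) or urothelium 8 (2.17), and with quantile normalization (2.35).

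Cxcl14, a chemokine gene expressed in many epithelia and in stroma, gave different answers from its 2 probe sets. Probe set 1418456_a_at had signals of 275.5, 348.8 and 429.8 in mesenchyme and 98.6, 134.0 and 197.7 in urothelium. The arrays did not overlap, but the difference of 1.09 ± 0.42 missed the threshold (adjusted p = 0.120). It passed with array weights (1.21), which called 27.8% of all genes, and in the mean of the probe sets (1.75). The dimmer probe set, 1418457_at, had 227.4, 225.7 and 214.8 in mesenchyme and 5.41, 4.35 and 5.88 in urothelium. Its difference of 2.41 ± 0.33 was past the test over all probe sets (adjusted p = 0.000989) and lay between 2.40 and 2.44 when single arrays were left out. Its urothelium signals lie far below the 45 added before taking logs and were not shown to be above background, so no ratio of signals is given.

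Cxcl16, the gene of the membrane-bound ligand of CXCR6, was not past the test. Mesenchyme 1, 2 and 4 read 1249, 312.2 and 286.7, and urothelium 5, 7 and 8 read 350.1, 424.0 and 472.8. The urothelium arrays lay between mesenchyme 1 and the other 2 mesenchyme arrays. The log2 difference was 0.23 ± 0.54 (adjusted p = 0.862), and without mesenchyme 1 it was -0.41. The further probe set, 1449195_s_at, gave 28.9, 148.0 and 177.2 in mesenchyme and 311.7, 178.0 and 181.5 in urothelium, with every urothelium array above every mesenchyme array, and a difference of -0.84 ± 0.52 that missed the threshold (adjusted p = 0.444). Mesenchyme 1 was the highest mesenchyme array on one probe set and the lowest on the other.

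The CC ligand genes Ccl2 and Ccl7, whose products attract monocytes, had low signals in both compartments. Ccl2 gave 142.7, 160.3 and 179.6 in mesenchyme and 139.8, 129.1 and 80.1 in urothelium. The mesenchyme arrays lay above the urothelium arrays, mesenchyme 1 and urothelium 5 by a narrow margin, and the difference, 0.37 ± 0.38, missed the threshold (adjusted p = 0.630). Ccl7 gave 49.2, 110.9 and 101.6 in mesenchyme and 48.3, 72.3 and 100.4 in urothelium, which overlap (0.15 ± 0.37, adjusted p = 0.870). The 95% interval of the fold, mesenchyme over urothelium, was 0.722 to 2.31 for Ccl2 and 0.629 to 1.95 for Ccl7.

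Ackr3, the scavenging receptor gene, had high signals in both compartments: 16924, 22207 and 18923 on mesenchyme 1, 2 and 4, and 14101, 17605 and 11796 on urothelium 5, 7 and 8. The ranges overlap, because urothelium 7 exceeded mesenchyme 1. The mean was 19351 ± 2668 in mesenchyme and 14501 ± 2925 in urothelium (SD, n = 3 each). The log2 difference, 0.43 ± 0.26, missed the threshold (adjusted p = 0.363), and its 95% interval in fold ran from 0.904 to 2.00. It missed the threshold under all 17 alternatives, at 0.04 with arrays centred on their medians to 0.57 without urothelium 7.

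Cxcr4, the signalling receptor gene for CXCL12, was dim. Its single probe set gave 50.6, 36.3 and 91.2 in mesenchyme and 52.5, 3.10 and 2.49 in urothelium. Urothelium 5 lay within the range of the mesenchyme arrays, while urothelium 7 and 8 lay below it. The log2 difference was 0.75 ± 0.36 (adjusted p = 0.236). The value depended on the scale: it was 2.62 with a pseudocount of 1, 0.27 with a pseudocount equal to the median of all values and 0.37 with arrays centred on their medians, none of which passed. It passed with array weights (0.995). With mesenchyme 1 and urothelium 5 both left out it was 1.14 (adjusted p = 0.0517). The signals of urothelium 7 and 8 lie far below 45, the 25th percentile of all values, where the log2 scale compresses differences. No detection call was used.

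**Figure D2:**
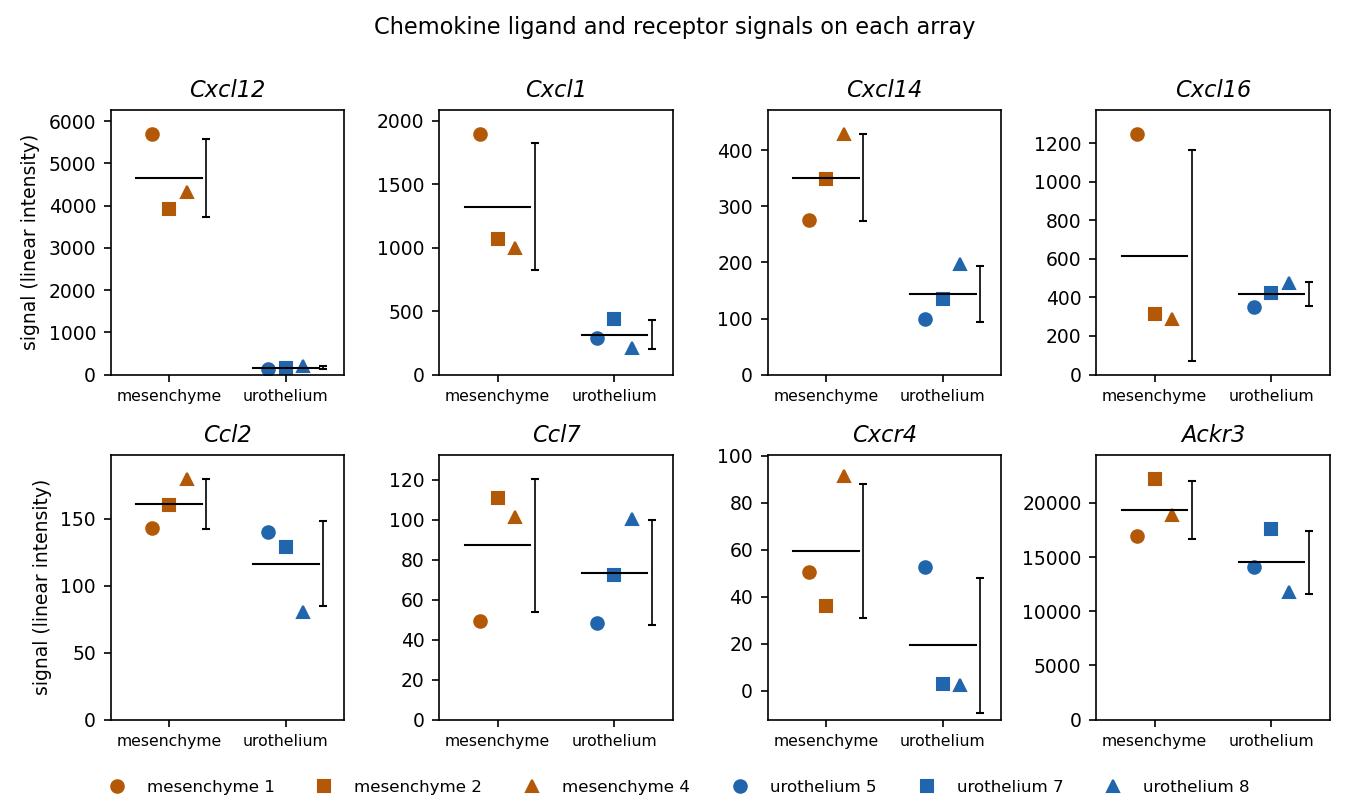
Signal (linear intensity) of the 8 chemokine genes on each array, mesenchyme left and urothelium right in each panel, with a symbol for each array, the mean as a line and the SD (n = 3) as a bar at its side. The arrays of Cxcl12, Cxcl1, Cxcl14 and, by a narrow margin, Ccl2 lie apart by compartment, and of these Cxcl12 and Cxcl1 are past the test. Ackr3 is high in both compartments. The axes differ between panels, so levels are not to be compared between genes.

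**Figure D3:**
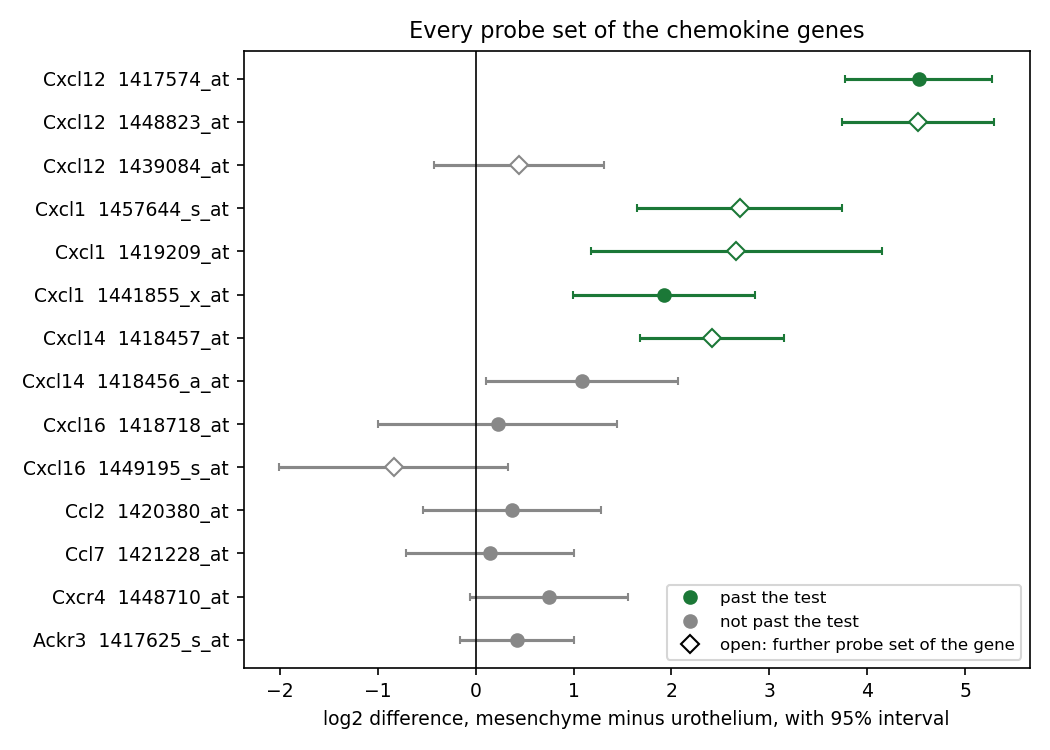
Log2 difference, mesenchyme minus urothelium, of the 14 probe sets of the 8 genes with its 95% interval, from the test over all probe sets; filled symbols mark the probe set used for the gene and green marks those past the test. Of the 14, 6 are past the test, all on the mesenchyme side, beside 9.41% of all probe sets, 5.75% with higher signal in mesenchyme. The 6 belong to Cxcl12, Cxcl1 and Cxcl14, and probe sets of the same gene are not separate genes.

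By distance between log2 profiles over the 6 arrays, each centred on its own mean, the genes most like Cxcl12 were Fbn2 (0.48), Cd302 (0.48) and Nid2 (0.57), among genes brighter than the median gene. Those most like Cxcl1 were Adgrl3 (0.38), Igf2r (0.40) and Fibin (0.40). For Cxcl14 they were Usp21 (0.24), Rilpl2 (0.24) and Elmo2 (0.24), and for Ackr3 they were Khnyn (0.18), Ctbs (0.25) and Sirt3 (0.26). For Cxcr4 they were Atrnl1 (0.46), Dtx3 (0.46) and Higd1a (0.46), and for Cxcl16 they were Cit (0.20), Hivep2 (0.23) and Ighm (0.42). For Ccl2 they were Acat1 (0.18), Hus1 (0.19) and Ndn (0.20), and for Ccl7 they were Dus1l (0.11), Dcaf15 (0.13) and Retreg3 (0.16). The log2 differences of Fbn2, Cd302 and Nid2 were 4.59, 4.41 and 4.62, beside 4.53 for Cxcl12, and the compartment difference is part of the measure.

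Among 29 other measured chemokine ligand genes, 4 were higher in mesenchyme and 1 in urothelium (median 0.60), beside 8.91% and 5.8% of all genes. Pf4, the platelet factor gene, differed by 2.84 ± 0.46 and Cxcl2, a neutrophil attractant gene like Cxcl1, by 2.36 ± 0.47. The other 2, named after their values were seen, were Ppbp (2.20 ± 0.60) and Ccl9 (1.73 ± 0.40). Ppbp was not past the test without mesenchyme 2 (1.62), urothelium 7 (2.41) or urothelium 8 (1.71), and Ccl9 not without urothelium 8 (1.41). Ppbp also missed the threshold with quantile normalization (1.87), and both did with arrays centred on their medians (Ppbp 1.82, Ccl9 1.35). The count in mesenchyme was 7 without mesenchyme 1 and 2 without urothelium 8. The gene higher in urothelium was Cxcl15, known in mouse as lungkine from airway epithelium, and without urothelium 8 that count was 2.

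Cxcl15 had signals of 23.0, 39.3 and 53.8 on mesenchyme 1, 2 and 4, and 9888, 6597 and 6400 on urothelium 5, 7 and 8. Its difference of -6.51 ± 0.37 (adjusted p = 2.16e-06) was larger than that of Cxcl12 and opposite to it. Its other probe set gave 42.5, 8.88 and 11.8 in mesenchyme and 13557, 6846 and 7167 in urothelium (-7.09).

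Of 19 other measured chemokine receptor genes, 2 were higher in mesenchyme and 0 in urothelium by the limma test (median 0.16). These counts are near the 8.91% and 5.8% of all genes past the same test. Cx3cr1, the fractalkine receptor gene of macrophages, had 233.5, 1589 and 973.5 in mesenchyme and 66.9, 117.8 and 84.1 in urothelium (2.54 ± 0.61). Ccr1, a receptor gene of myeloid cells, had 478.1, 466.8 and 350.0 in mesenchyme and 3.40, 62.9 and 73.6 in urothelium (2.47 ± 0.45). The call of Cx3cr1 was lost without mesenchyme 2 (2.00), mesenchyme 4 (2.34), urothelium 5 (2.42) or urothelium 8 (2.52), each of which leaves a count of 1. It was also lost with quantile normalization (2.16) and when its probe sets were averaged (1.48). Both were higher in mesenchyme, the compartment with the higher summed signal of macrophage and leukocyte markers, whose part in them was not tested. Across the mesenchyme arrays Cx3cr1 was lowest on mesenchyme 1, as was that sum, while Ccr1 was highest there. Mesenchyme 1 also had an actin ratio of 8.40, and nothing is read from the order of 3 arrays. Cxcr2, the receptor gene for CXCL1 and CXCL2, differed by -0.04 ± 0.33 and Cxcr6, the receptor gene for CXCL16, by -0.52 ± 0.35; neither was past the test. Ccr2, the receptor gene for CCL2 and CCL7, gave 0.26 ± 0.45 and missed the threshold too. These 3 genes are named as the receptors of the described ligands.

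**Figure D4:**
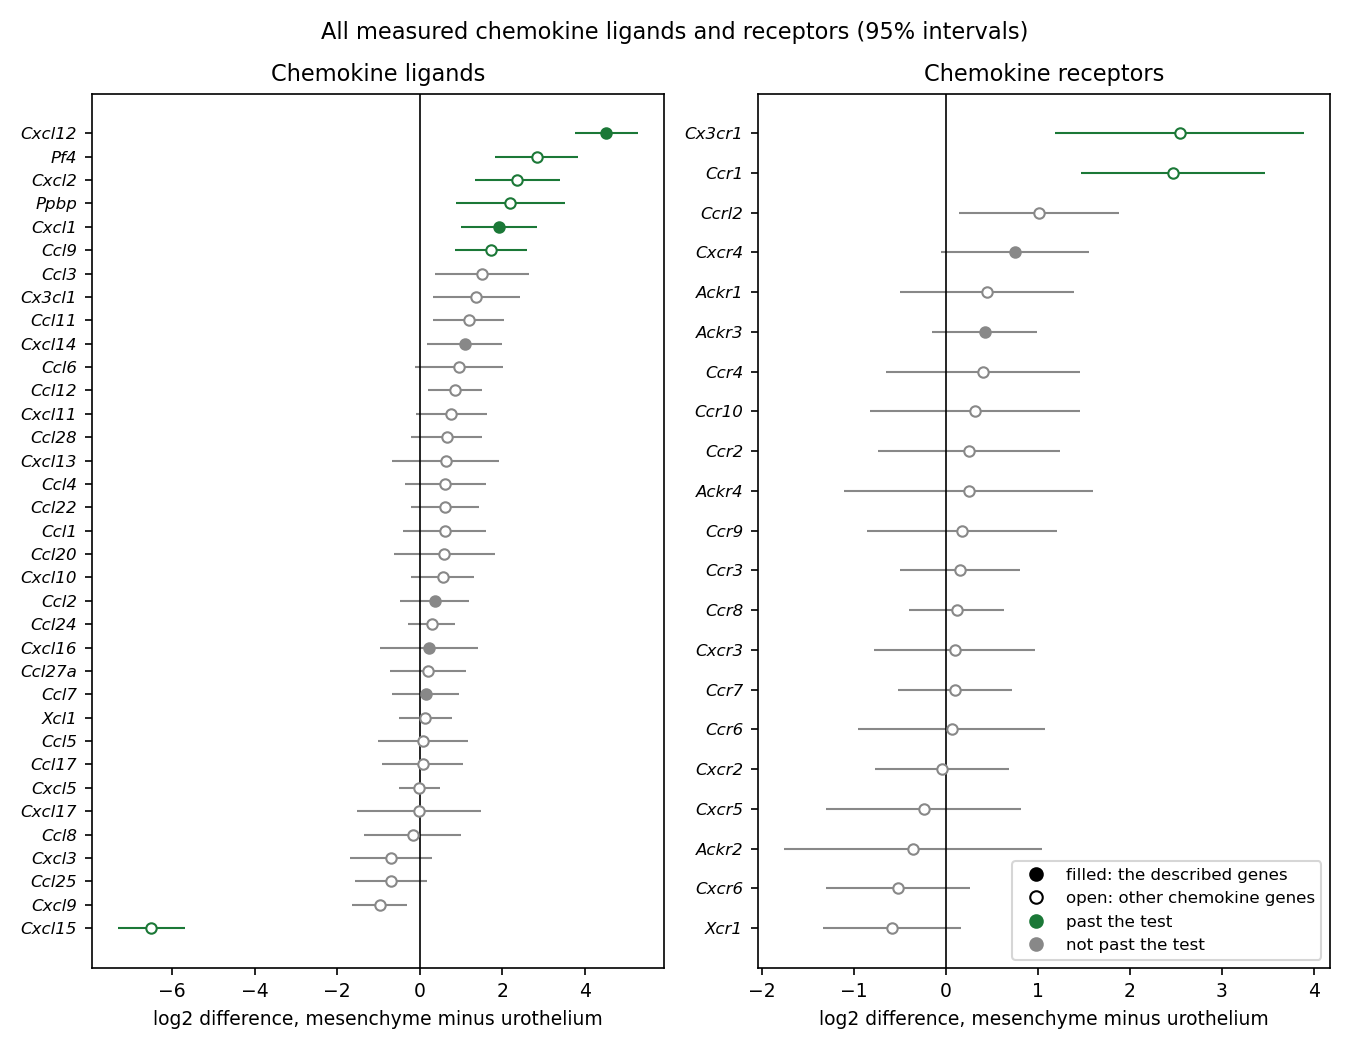
Log2 difference, mesenchyme minus urothelium, with its 95% interval for every measured chemokine ligand gene (left) and receptor gene (right), ordered by difference; filled symbols are the 8 described genes, open symbols the other 29 ligand and 19 receptor genes, and green marks those past the test. Cxcl12 stands at the mesenchyme end of the ligands and Cxcl15 at the urothelium end.

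Cxcl1 lies in a run of 7 neighbouring CXC genes on mouse chromosome 5, in the order Cxcl5, Ppbp, Pf4, Cxcl3, Cxcl15, Cxcl1 and Cxcl2 in RefSeq's gene table (GRCm38.p6). The run was looked at with the results known. Of these 7 genes 4 were higher in mesenchyme (Ppbp, Pf4, Cxcl1 and Cxcl2) and 1 in urothelium (Cxcl15), beside 8.91% and 5.8% of all genes. These are calls already counted above, and that of Ppbp was lost under several alternatives. Cxcl15, the direct neighbour of Cxcl1 in the table, thus differed in the opposite direction from the genes on either side that passed. Cxcl3 (-0.69 ± 0.45) and Cxcl5 (-0.00 ± 0.22) were not past the test. Ccl2 and Ccl7 open a run of CC genes on chromosome 11, followed by Ccl11, Ccl12, Ccl8 and Ccl1. Of these 6 genes 0 were past the limma test, beside 14.7% of all genes, with differences from -0.17 (Ccl8) to 1.19 (Ccl11). Counts in runs this short are not read as a result about the runs. Ccl12 (0.85) passed when mesenchyme 1 was left out (1.13), alone or together with urothelium 5 (1.12), with a pseudocount of 1 (3.38) and with array weights (1.05). Ccl11 passed with array weights (1.06).

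The RefSeq promoters of Cxcl1, Cxcl2 and Cxcl15 are shown because these neighbours differed in opposite directions. They are the 250 bases before each annotated start on the plus strand of GRCm38.p6: chr5:90890995-90891244 for Cxcl1, chr5:90903649-90903898 for Cxcl2 and chr5:90794284-90794533 for Cxcl15. Capitals mark, on either strand, the kappaB site of NF-kappaB factors, TATAAA or GGGCGG; no matches of different motifs overlap in these windows.
Cxcl1: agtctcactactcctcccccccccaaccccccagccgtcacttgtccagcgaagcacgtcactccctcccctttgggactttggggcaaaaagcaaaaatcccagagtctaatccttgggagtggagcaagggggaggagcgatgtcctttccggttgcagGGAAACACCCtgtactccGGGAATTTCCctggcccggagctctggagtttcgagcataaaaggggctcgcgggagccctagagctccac
Cxcl2: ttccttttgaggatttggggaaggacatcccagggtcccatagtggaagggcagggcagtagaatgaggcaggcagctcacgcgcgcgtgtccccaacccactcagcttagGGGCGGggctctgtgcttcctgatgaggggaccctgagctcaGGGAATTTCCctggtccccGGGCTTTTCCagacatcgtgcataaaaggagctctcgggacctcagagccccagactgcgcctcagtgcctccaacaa
Cxcl15: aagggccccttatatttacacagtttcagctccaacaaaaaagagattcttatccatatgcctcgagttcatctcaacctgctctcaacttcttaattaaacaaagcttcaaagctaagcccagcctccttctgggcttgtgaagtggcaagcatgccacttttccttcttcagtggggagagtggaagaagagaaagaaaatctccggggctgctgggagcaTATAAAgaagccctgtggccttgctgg
Cxcl1 and Cxcl2 each hold 2 matches to the kappaB site, one of which is GGGAATTTCC in both, 71 bases before the start in Cxcl1 and 97 bases in Cxcl2. The kappaB site was searched as a single pattern that leaves some bases free, and sites outside that pattern were not looked for. Of the 32851 windows 1.41% hold a match to this pattern on either strand. Cxcl15 holds no match to the pattern and has TATAAA 27 bases before the start. No match to the kappaB site was found in the windows of Cxcl12, Cxcl14, Cxcr4 or Ackr3 either. A match is a description of letters and says nothing of whether a factor was bound. Windows were given for 5 of the 8 genes, not for Cxcl16, Ccl2 and Ccl7.

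**Figure D5:**
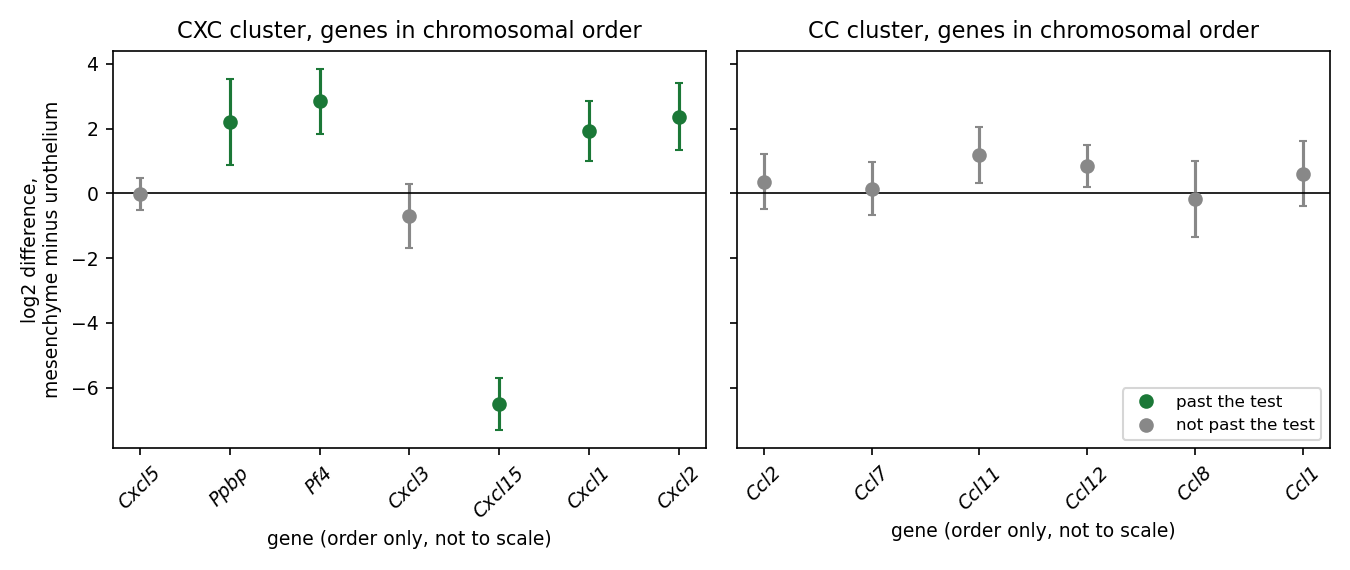
Log2 difference, mesenchyme minus urothelium, with its 95% interval for the genes of the CXC run (left) and the CC run (right) in chromosomal order, not to scale; green marks those past the test. Cxcl15 lies at -6.51 next to Cxcl1 at 1.92, and no gene of the CC run is past the test, beside 14.7% of all genes.

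Of 18 measured genes that receptors signal through, 2 were higher in mesenchyme and 2 in urothelium (median 0.59), and 14 did not pass. Over all genes the shares were 8.91% and 5.8%, and counts this small are not read as a result about the list. The receptor kinase gene Grk5 (1.67 ± 0.38) and Arrb1, the gene of beta-arrestin 1 (1.53 ± 0.33), were higher in mesenchyme. Ptk2b, an adhesion-related kinase gene (-1.71 ± 0.47), was higher in urothelium, as was the kinase gene Grk3 (-1.07 ± 0.31), which was picked out with its value known. Ptk2b passed without mesenchyme 4 (-2.08) but not without any other array (-1.85 to -1.30). Without both mesenchyme 1 and urothelium 5 it was -1.44 and missed the threshold. Averaged over its probe sets it was -0.61 (adjusted p = 0.363). The call of Grk5 was lost without urothelium 7 (1.54) and that of Arrb1 without mesenchyme 2 (1.43). The count in urothelium was 1 without mesenchyme 4 and 0 without any other single array, and 0 without both mesenchyme 1 and urothelium 5.

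Of 13 measured genes of chemokine processing and of other ligands of these receptors, 4 were higher in mesenchyme and 3 in urothelium (median 0.64), beside 8.91% and 5.8% of all genes. Mmp2, a protease gene whose product cleaves CXCL12, differed by 4.41 ± 0.31, and Ramp2, a partner of the adrenomedullin receptor, by 3.54 ± 0.39. Sdc4, a syndecan gene of the heparan sulphate chains that hold chemokines, was higher in urothelium (-3.04 ± 0.29). The count in urothelium was 1 when any single array was left out.

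Of 14 measured NF-kappaB and inflammatory genes, 1 was higher in mesenchyme and 0 in urothelium by the limma test (median -0.09). Beside 8.91% and 5.8% of all genes this is near the background and no result about the list. That gene was Irf1 (1.68 ± 0.33), named after its value was seen. Nfkbia, the inhibitor gene induced by NF-kappaB, had 16629, 21323 and 28934 in mesenchyme and 38173, 29053 and 21480 in urothelium (-0.40 ± 0.31, adjusted p = 0.486), and Rela, a subunit gene, differed by -0.18 ± 0.33. Of 16 immediate early genes, which dissection can induce, 3 were higher in mesenchyme and 2 in urothelium (median 0.47), beside 8.91% and 5.8% of all genes. They included Klf2 (2.66 ± 0.42), also an endothelial gene, Fosb (1.27 ± 0.34) and Zfp36 (-1.09 ± 0.28). Fosb kept its call without mesenchyme 4 and lost it without any other single array (1.09 to 1.32), with quantile normalization (1.06) and with arrays centred on their medians (0.89). Its call was also lost without both mesenchyme 1 and urothelium 5 (1.09). Zfp36 lost its call without mesenchyme 2, mesenchyme 4, urothelium 7 or urothelium 8 (-1.15 to -0.92). The summed signal of the 16 genes was 154197 to 160293 on the mesenchyme arrays and 155156 to 196788 on the urothelium arrays, and their part in the difference of Cxcl1 was not tested. Leaving out mesenchyme 1, mesenchyme 2, urothelium 5 or urothelium 8 left 1 higher in mesenchyme, and without both mesenchyme 1 and urothelium 5 the counts were 1 in mesenchyme and 4 in urothelium. The count in urothelium was 0 without mesenchyme 2, mesenchyme 4 or urothelium 7 and 1 without urothelium 8.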

How the data were processed

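Each deposited value is a linear intensity, 1 signal for each of 45101 probe sets on 6 arrays. Per the submitters' processing notes they were made with GCOS, Affymetrix's operating software; which algorithm and settings were used is not stated there. The 2% trimmed mean was 1500 on every array, so no scaling was added. The number of arrays limits the precision. Of 34945 probe sets with a single symbol, the one with the highest mean log2 signal stood for each of 18193 genes, and 34741 of these probe sets were matched to RefSeq by Entrez identifier. Signals were analysed as log2(signal + 45), 45 being the 25th percentile of all values. limma 3.58.1 in R 4.3.3 (lmFit, eBayes with an intensity trend) compared mesenchyme with urothelium, with Benjamini-Hochberg adjustment; the fit was tested on simulated data. The naming rule took from each list at most 3 genes, those that passed with the greatest size of difference, or its 2 brightest where fewer than 2 passed. Genes outside the rule (Ppbp, Ccl9, Grk3, Irf1, the receptors of the described ligands and the neighbours of Cxcl1, Ccl2 and Ccl7) were named with their values known. The 8 genes and all lists were chosen with earlier results of these data known; lists are described by counts and medians only. The lists name 193 genes, of which 12 could not be measured by a single-symbol probe set. Alternatives were other pseudocounts, scalings, filters and probe set rules, array weights and leaving out arrays.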

Additional observations from a re-analysis of the deposited data

How the results depend on the processing

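No paired analysis was possible because the compartments share no replicate numbers. Over the 8 chemokine genes 119 of 131 alternative values kept their direction and side of the threshold, including all for Cxcl12, Cxcl1 and Ackr3. Some alternatives, such as the fit without an intensity trend or the filter on signal, cannot change the difference itself, only its p-value. The tally is therefore not a count of separate checks of direction. The cause of the changes below was not tested. With array weights Cxcr4 (0.995) and Cxcl14 (1.21) passed the test, and Cxcl14 passed in the mean of probe sets (1.75). The sign of Cxcl16 turned with quantile normalization (-0.0457), median centring (-0.16), array weights (-0.31), averaged probe sets (-0.31) and without both mesenchyme 1 and urothelium 5 (-0.52); leaving out single arrays gave -0.41 to 0.57. Median centring turned Ccl2 (-0.0146) and Ccl7 (-0.24), and Ccl7 lay between -0.0167 and 0.37 when single arrays were left out. Among other genes, leaving out single arrays gave Rela -0.49 to 0.0394, Cxcl5 -0.10 to 0.0471, Ccl8 -0.75 to 0.13 and Ccl1 -0.0139 to 0.94, and without both arrays Ccl1 was -0.0403. Genes higher in mesenchyme numbered 998 among genes above the median signal and 2996 with array weights, beside 1621. Genes higher in urothelium numbered 1689 with median centring, 2055 with array weights and 660 to 1059 without single arrays, beside 1055. In the lists, counts higher in mesenchyme moved as follows. Among genes above the median signal they were 1 for other ligands, 0 for other receptors, 1 for signalling partners, 6 for endothelial, 2 for macrophage and leukocyte and 2 for mesothelial markers. With array weights they were 8 for other ligands, 6 for signalling partners and 11 for macrophage and leukocyte markers. With median centring they were 2 for other ligands, 1 for immediate early genes, 2 for red cell genes and 2 for mesothelial markers. With quantile normalization they were 1 for other receptors and 1 for red cell genes, and in the mean of probe sets 1 for other receptors, 4 for signalling partners and 2 for red cell genes. Without both mesenchyme 1 and urothelium 5 they were 1 for immediate early genes and 2 for red cell genes. Without single arrays they were 2 to 7 for other ligands, 1 to 2 for other receptors, signalling partners and immediate early genes, 0 to 4 for red cell genes and 2 to 4 for mesothelial markers. Counts higher in urothelium were 2 for other ligands with quantile normalization, median centring and array weights, 1 for signalling partners and mesothelial markers among genes above the median signal, and 0 for signalling partners with averaged probe sets or when both arrays were left out. For processing genes they were 1 with quantile normalization, with averaged probe sets and when no intensity trend was fitted. For immediate early genes they were 4 with median centring, array weights and without both arrays, and 1 when no intensity trend was fitted or probe sets were averaged. Without single arrays they were 1 to 2 for other ligands, 0 to 1 for signalling partners, 1 for processing genes and 0 to 3 for immediate early genes. The choice of probe set by linear mean and the fit of single probe sets under each alternative were added after seeing the data.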
